A study of Homo sapiens with 10 samples.

Results

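BCR on chromosome 22 and ABL1 on chromosome 9 are the 2 genes joined by the Philadelphia translocation, and they were taken here as the 1-kb bins of hg19 that overlap BCR (chr22:23522552-23660224, 137.673 kb) and ABL1 (chr9:133589268-133763062, 173.795 kb). The genes hold 139 and 175 bins, 314 of the 2820626 bins of the deposited tracks, and 200 kb on either side of each was read to place the step in depth. The bins were chosen by position and not by any measured value.

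BCR encodes a protein with kinase and GTPase-regulating activities, and ABL1 encodes a non-receptor tyrosine kinase. The fusion gene on the derivative chromosome 22 starts at the BCR promoter, keeps the 5′ part of BCR and continues into the 3′ part of ABL1, which carries the kinase domain, so it is transcribed from BCR into ABL1. K562 is a human leukaemia line, described in the labels as erythroleukemic, that carries this fusion in many extra copies, whereas HepG2 is a human hepatocellular carcinoma line without it. Gamma-H2AX is H2AX phosphorylated around DNA double-strand breaks, and H3K27me3 is the repressive mark of Polycomb.

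CUT&RUN, which cuts out and sequences the DNA around an antibody bound to chromatin, gave 10 libraries in 6 groups. Cells irradiated with 6 Gy gave K562 gamma-H2AX after 1 h (n = 2), K562 gamma-H2AX after 24 h (n = 2), K562 H3K27me3 after 1 h (n = 1) and HepG2 gamma-H2AX after 1 h (n = 1). Untreated cells gave K562 H2AX (n = 2) and HepG2 H2AX (n = 2). For the H2AX libraries the labels name an antibody against histone H4, so these were read as untreated chromatin whichever histone was bound, and every gamma-H2AX or H3K27me3 value set against them differs in antibody as well as in irradiation. Whether replicates came from separate cultures is not labelled, so the p-values cover the spread of these libraries alone, and that spread may be technical.

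Mean depth per base ranged from 0.324 to 1.77 over the libraries, and levels below are relative depths, the depth of a bin divided by the mean of its library. The steps in the values pointed to reads of 60 bp in the K562 1 h libraries of both marks and of 41 bp in all others, so read length and group cannot be told apart in the comparisons of these libraries with H2AX or with 24 h. In bins where the first K562 24 h replicate reads above 0, the highest mean depth of the 1 h libraries was 1.642. By this choice of value the replicate reads 0 in every bin above it. Those bins are 33.1% of all bins, 63.1% of the bins of the BCR locus with its flanks and 84.2% of those of the ABL1 locus. In the second 24 h replicate 0.316% of the same bins read 0. The first replicate was therefore left out of the tests, its 24 h group then has 1 library, and counts with it kept are given beside the results. CDKN2A on chromosome 9, which K562 has lost, averaged 0 to 0.00606 in the 7 K562 libraries and 0.796 to 1.02 in the 3 HepG2 libraries, so no library went against its line label.

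The promoter sequences of both genes are shown because gamma-H2AX changed level just before the start of BCR and because the fusion puts the kinase part of ABL1 under the BCR promoter. They were taken from RefSeq on GRCh38.p14, not the build of the tracks, each 250 bases before to 50 after the start site on the + strand, at chr22:23180259-23180558 and chr9:130835004-130835303. Capitals mark GC boxes, searched as GGGCGG and its reverse complement CCGCCC.
BCR: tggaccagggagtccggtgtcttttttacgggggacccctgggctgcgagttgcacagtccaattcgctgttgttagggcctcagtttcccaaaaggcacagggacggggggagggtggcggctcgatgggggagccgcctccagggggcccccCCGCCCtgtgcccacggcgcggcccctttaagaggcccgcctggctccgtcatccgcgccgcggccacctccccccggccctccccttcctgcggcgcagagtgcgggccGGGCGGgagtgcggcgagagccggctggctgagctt
ABL1: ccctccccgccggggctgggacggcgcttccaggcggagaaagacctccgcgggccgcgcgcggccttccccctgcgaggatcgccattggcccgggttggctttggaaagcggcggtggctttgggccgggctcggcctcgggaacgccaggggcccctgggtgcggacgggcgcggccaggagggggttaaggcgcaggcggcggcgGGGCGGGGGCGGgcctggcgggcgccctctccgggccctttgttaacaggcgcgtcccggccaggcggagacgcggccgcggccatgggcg
The BCR stretch is 71.7% G and C, with 27 CpG, 1 GC box on each strand and no TATAAA. The ABL1 stretch is 78.3% G and C, with 42 CpG, 2 GC boxes on the + strand and no TATAAA. Its start site lies 122.211 kb inside the gene as annotated in GRCh38. The step in depth described below lies 17.733 kb from the ABL1 start in hg19. If the annotated gene starts of the builds correspond, this start site falls on the side that the fusion keeps. Over the 35116 promoters of the table the median was 14 CpG, 45.0% held a GC box on either strand and 11.5% held TATAAA on either strand. A match is a description of the letters and not a bound site.

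Depth changed abruptly inside each gene in untreated K562. In the mean of the K562 H2AX libraries, the least-squares change point lay at 23633001 in BCR, 110.449 kb from its start and 27.224 kb from its end, and at 133607001 in ABL1, 17.733 kb from its start and 156.062 kb from its end. The level was 10.1 before and 0.759 after the BCR step and 1.34 before and 10.5 after the ABL1 step, and the steps took up 93.9% and 93.4% of the variance of the log2 level over the gene and its flanks. The raised part is thus the 5′ side of BCR and the 3′ side of ABL1, the sides that the fusion gene keeps. Both H2AX replicates gave the same bin in each gene when taken alone, and so did the second 24 h gamma-H2AX library. Both 1 h gamma-H2AX libraries gave the same bin in ABL1, whereas in BCR their best single change point lay past the step, at 23644001 and 23658001, where gamma-H2AX falls off towards the gene end. H3K27me3 changed most outside the genes, at 23515001 and 133769001. In the mean of the HepG2 H2AX libraries the best change point took up 4.56% of the variance at BCR and 0.832% at ABL1.

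The edge fell between neighbouring bins. In BCR the last raised bin, from 23632001, had relative depths of 19.9 and 22.0 in K562 gamma-H2AX at 1 h, 6.09 in the second 24 h library and 9.63 and 7.60 in K562 H2AX. The next bin had 1.04 and 1.63 at 1 h, 0.419 at 24 h and 1.23 and 0.350 in H2AX, so all 5 libraries dropped at the same place. In ABL1 the last low bin, from 133606001, had 2.51 and 2.46 at 1 h, 1.37 at 24 h and 2.32 and 2.44 in H2AX. The first raised bin had 18.6 and 23.7 at 1 h, 9.99 at 24 h and 12.2 and 14.0 in H2AX. In that bin HepG2 gamma-H2AX read 2.06 and HepG2 H2AX read 2.46 and 2.40, also above the preceding bin in each HepG2 library (0.554 in gamma-H2AX, 0.859 and 0.598 in H2AX), so part of the local rise is shared with a line without the fusion.

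**Figure D1:**
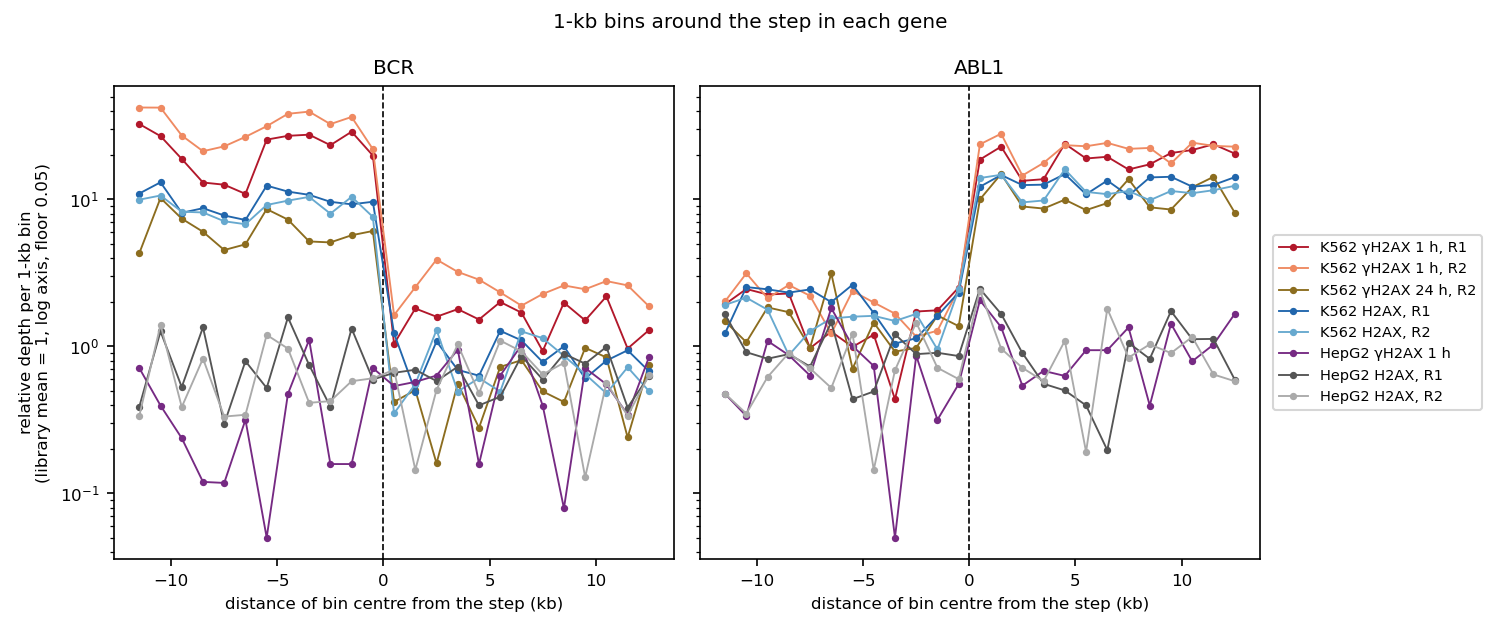
Relative depth (log axis, library mean = 1, values under 0.05 drawn at 0.05) of 1-kb bins against distance from the step, for 5 K562 and 3 HepG2 libraries. All 5 K562 libraries fall at the BCR step and rise at the ABL1 step within neighbouring bins, for example with 19.9 and 1.04 in the first 1 h replicate at BCR, whereas the HepG2 libraries stay between 0 and 2.46.

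The step in K562 H2AX was larger in BCR than in ABL1, and part of the BCR difference was also present in HepG2. The side of BCR kept in the fusion stood 14.2- and 14.8-fold above the other side in the K562 H2AX replicates (mean log2 3.86 ± 0.05, SD, n = 2), and that of ABL1 6.99- and 6.54-fold (mean log2 2.76 ± 0.07, SD, n = 2). In HepG2 H2AX the same side of BCR stood 1.53- and 1.72-fold above the other (mean log2 0.70 ± 0.12, SD, n = 2), and that of ABL1 0.924- and 0.970-fold. Divided by HepG2 H2AX in the same bins, the K562 steps were 3.16 in BCR and 2.84 in ABL1 on the log2 scale. Against HepG2 H2AX, K562 H2AX was 13.1-fold higher on the fused side of BCR (11.5 to 14.9 over the pairs of libraries) and 12.9-fold higher on the fused side of ABL1 (11.7 to 14.1), so the raised parts of the 2 genes did not differ beyond the spread of the pairs. On the remaining sides K562 over HepG2 was 1.46-fold in the 3′ part of BCR (1.18 to 1.81) and 1.80-fold in the 5′ part of ABL1 (1.66 to 1.96). These ranges overlap, but the same libraries enter both, and in each pair of libraries ABL1 had the higher ratio. Outside the genes the raised stretch went on through the 200 kb before BCR, at 10.6-fold, and the 200 kb after ABL1, at 11.1-fold. It was absent from the 200 kb after BCR, at 0.936-fold (0.899 to 0.975). The 200 kb before ABL1 stood at 1.59-fold (1.41 to 1.78), so the flanks beside the remaining sides also differed. In the genome-wide test (limma on 10-kb windows, Benjamini-Hochberg adjusted p under 0.05), K562 H2AX was above HepG2 H2AX in 13 of 15 BCR windows and all 19 ABL1 windows and below it in 0, beside 30.6% of all windows called, 14.3% of them all being higher. The median log2 fold change was 3.52 over BCR and 3.62 over ABL1, against -0.047 over all windows, and the steepest was 3.95 at 23540001 in BCR (SE 0.18, limma adjusted p = 4.98e-09) with the lowest in BCR 0.25 at 23660001. In ABL1 the highest was 3.84 at 133690001 and the lowest 0.76 at 133590001, and the windows that hold the steps had 2.24 in both genes. The joint count of 32 windows was 0 with the first 24 h replicate kept in the fit, whose spread enters every comparison. Depth of a chromatin library is not a count of DNA copies, and more copies and more recovered chromatin per copy cannot be told apart here.

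**Figure D2:**
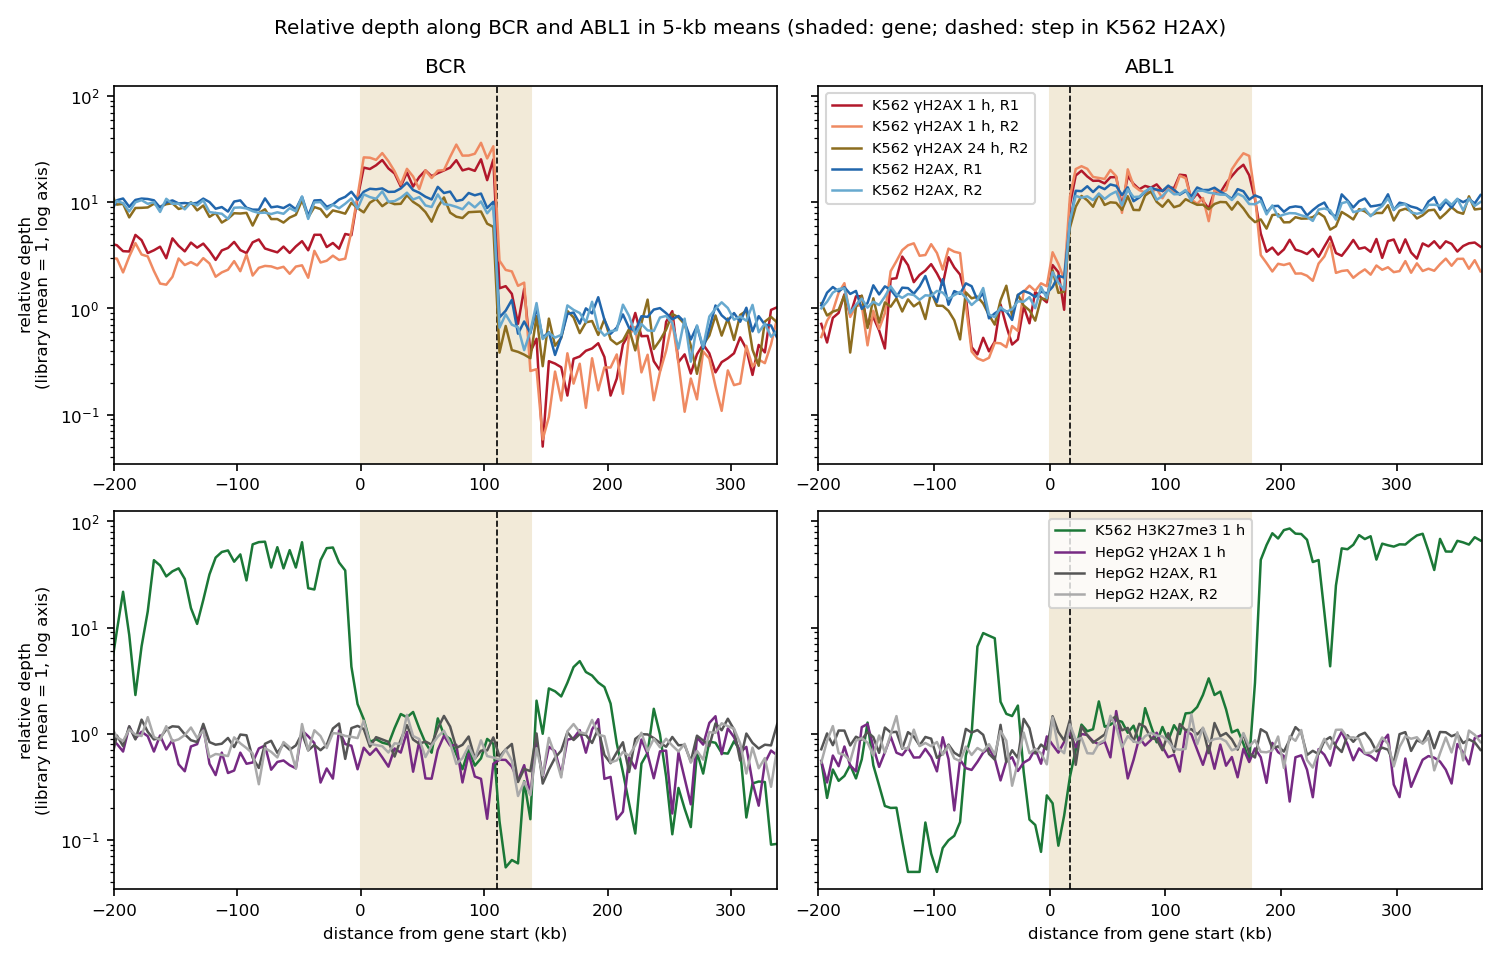
Relative depth (log axis, library mean = 1) in means of 5 kb along each gene and 200 kb on either side, K562 gamma-H2AX and H2AX in the upper panels and K562 H3K27me3 with the HepG2 libraries in the lower panels. K562 H2AX runs near 10 before the BCR step and after the ABL1 step, the 1 h libraries exceed it over most of BCR and at both ends of the fused side of ABL1 and lie below it before BCR and after ABL1, where H3K27me3 is high.

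Within the raised stretch, gamma-H2AX at 1 h after irradiation stood above H2AX in the genes and below it in the flanks. This excess was not particular to the fused sides. The parts of BCR and ABL1 outside the fusion also had mean ratios to H2AX of 2.10 and 1.21. Reads of fused and of normal copies were not separated, so each level is a sum over both. On the fused side of BCR gamma-H2AX reached relative depths of 20.1 and 24.3 at 1 h, against 12.2 and 10.2 in K562 H2AX, a mean ratio of 1.98 ± 0.26 (SD, n = 2). In the 200 kb before BCR, where H2AX was nearly as high, the 1 h libraries read 4.07 and 2.89, against 9.85 and 9.04 in H2AX, a mean ratio of 0.368 ± 0.088 (SD, n = 2). The 1 h libraries thus lay above both H2AX libraries inside BCR and below both outside it, with no overlap in either place. On the fused side of ABL1 the 1 h libraries read 15.2 and 16.0, against 12.8 and 11.7 in H2AX (mean ratio 1.27 ± 0.05, SD, n = 2), and in the 200 kb after ABL1 4.05 and 2.82, against 9.58 and 8.81 (mean ratio 0.373 ± 0.094, SD, n = 2). ABL1 therefore showed the same order as BCR, with a smaller excess inside the gene.

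The parts that the fusion leaves out kept the same sign. The 3′ part of BCR, past the step, read 1.27 and 2.0 at 1 h, against 0.862 and 0.691 in K562 H2AX (mean ratio 2.10 ± 0.67, SD, n = 2), while the 200 kb after BCR read 0.420 and 0.290, against 0.769 and 0.748 (mean ratio 0.468 ± 0.121, SD, n = 2). The fall in gamma-H2AX relative to H2AX thus lay at the end of BCR and not at the step. The 5′ part of ABL1 read 1.93 and 2.47 at 1 h, against 1.83 and 1.80 in H2AX (mean ratio 1.21 ± 0.21, SD, n = 2), and the 200 kb before ABL1 read 1.29 and 1.68, against 1.36 and 1.23. In that ABL1 flank the groups overlapped.

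Across the step itself the 1 h ratio to H2AX did not shift in a common direction. The log2 ratio on the fused side minus that on the other side was 0.14 and -0.25 in BCR and 0.23 and -0.058 in ABL1, so the replicates disagreed in sign in both genes. With 2 libraries against 2, an exact permutation test cannot give a two-sided p below 0.33, and none was run. The step in gamma-H2AX was of the size seen in H2AX, 15.9- and 12.2-fold at 1 h in BCR against 14.2- and 14.8-fold in H2AX, and 7.92- and 6.50-fold in ABL1 against 6.99- and 6.54-fold in H2AX. These values are for the gene bodies. Over 100 kb on either side of the step, which takes in the BCR 3′ flank and the ABL1 5′ flank, the mean difference was 1.22 in BCR and 0.49 in ABL1.

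**Figure D3:**
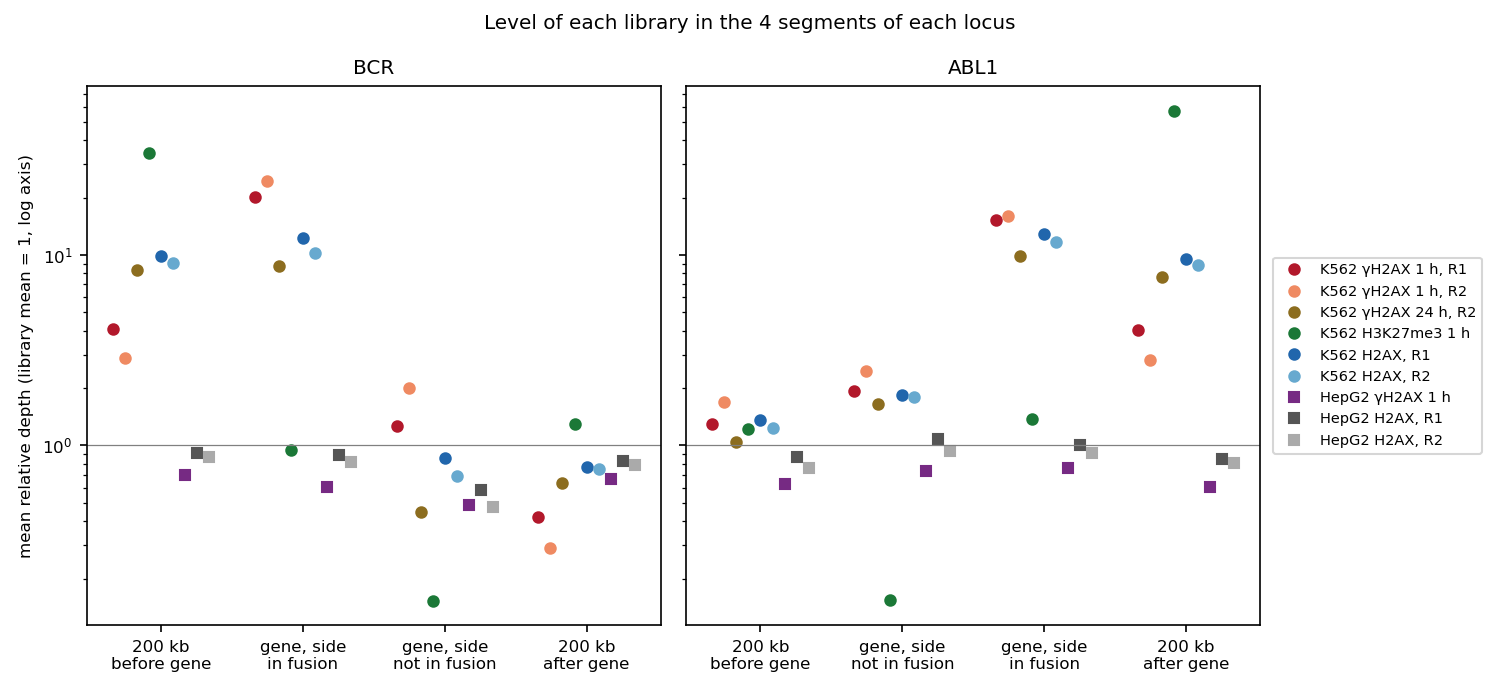
Mean relative depth (log axis, library mean = 1) of 9 libraries in the 4 segments of each locus, circles for K562 and squares for HepG2, 1 point per library with no error bar. On the fused sides the 1 h gamma-H2AX points stand highest (20.1 and 24.3 in BCR). H3K27me3 stands highest before BCR (34.4), after BCR (1.29) and after ABL1 (57.3) but not before ABL1 (1.21).

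By 10-kb windows, gamma-H2AX at 1 h rose over K562 H2AX in 13 of the 15 BCR windows and fell in 1, and rose in 5 of the 19 ABL1 windows and fell in 1 (limma, adjusted p under 0.05). Over the genome 54.9% of the 276350 windows were called, 18.5% higher and 36.4% lower, so the 5 higher windows of ABL1 are to be read against a common call. The median log2 fold change was 0.92 over BCR and 0.37 over ABL1, against -0.044 over all windows. Within the fused side of BCR 10 of 11 windows rose. The log2 fold change was lowest at 23550001, with 0.39, which was not called (SE 0.17, limma adjusted p = 0.0729). Windows before and after that one rose. The values were highest near the step, with 1.47 at 23620001 and 1.52 at 23630001. The latter window holds the step (SE 0.19, limma adjusted p = 1.33e-04). The step window read 8.35 and 10.9 at 1 h, against 3.50 and 3.10 in H2AX. Past the step the windows at 23640001 and 23650001 rose by 0.92 and 0.81, and the window that fell, at 23660001 with -1.0, holds only the last bases of the gene.

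In ABL1 the windows that rose lay at both ends of the fused side. The window that holds the step, at 133600001, rose by 0.49, and the neighbours at 133610001 and 133620001 rose by 0.76 and 0.52. The highest was 133750001, near the end of the gene, with 20.9 and 26.4 at 1 h, against 12.7 and 11.5 in H2AX (log2 fold change 0.96, SE 0.18, limma adjusted p = 8.08e-04). The lowest was 133720001, with 9.61 and 8.68 at 1 h, against 13 and 12.2 in H2AX (log2 fold change -0.46, SE 0.18, limma adjusted p = 0.046). This call was lost under median-of-ratios scaling, with no filter and with only the compared libraries. It was also lost without the second 1 h replicate, without either K562 H2AX replicate and with the first 24 h replicate kept. The 2 windows before the step, with 0.16 and 0.37, were not called. The joint count of 20 windows was 12 with no filter on low windows, 11 without K562 H2AX replicate 2 and 0 with the first 24 h replicate kept in the fit. In ABL1 alone the 5 higher windows were 1 with no filter, 3 with only the compared libraries, 2 without either K562 H2AX replicate and 8 without the first 1 h replicate.

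**Figure D4:**
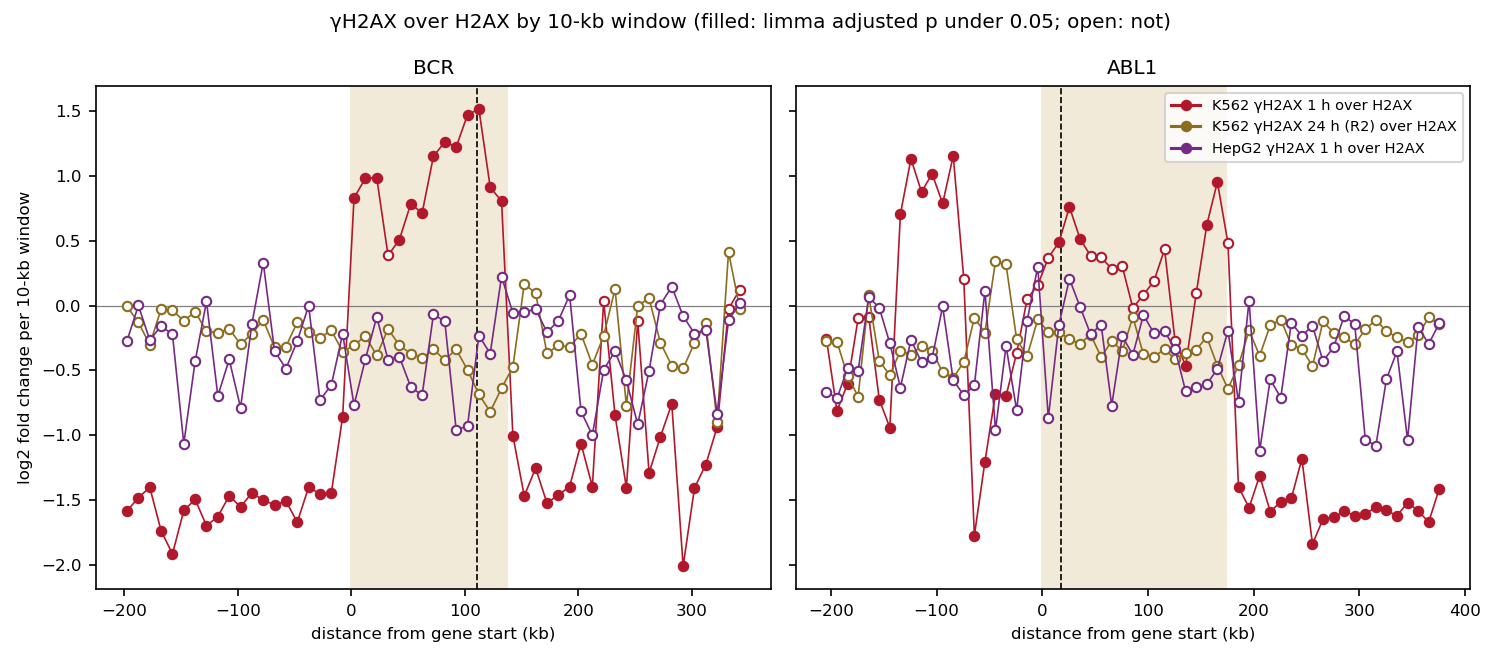
Log2 fold change of gamma-H2AX over H2AX of the same line per 10-kb window against distance from the gene start, for K562 at 1 h, K562 at 24 h (second replicate) and HepG2 at 1 h; filled points passed the test, the shaded span is the gene and the dashed line the step. K562 at 1 h peaks at 1.52 at the BCR step and at 0.96 near the end of ABL1 and lies near -1.5 in the BCR 5′ flank and the ABL1 3′ flank, and no point of the other comparisons is filled.

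The flanks moved the other way in the same test. Gamma-H2AX at 1 h was below K562 H2AX in all 20 windows before BCR (median log2 fold change -1.50) and all 20 after ABL1 (median -1.58), in 16 of 20 after BCR, and in 8 of 20 before ABL1, where 6 were higher. With the first 24 h replicate kept in the fit none of these 80 windows was called.

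H3K27me3 had the opposite order to gamma-H2AX at the outer ends of the fusion gene, and by segment means also at the end of BCR outside the fusion. It read 34.4 in the 200 kb before BCR, against 9.85 and 9.04 in K562 H2AX, and 0.951 on the fused side of BCR, against 12.2 and 10.2. It read 57.3 in the 200 kb after ABL1, against 9.58 and 8.81 in H2AX, and 1.38 on the fused side of ABL1, against 12.8 and 11.7. The single H3K27me3 library therefore stood above both H2AX libraries in these flanks and below both within the genes. In the 3′ part of BCR and the 5′ part of ABL1 it read 0.153 and 0.155, against 0.691 to 0.862 and 1.80 to 1.83 in H2AX. In the 200 kb after BCR it read 1.29, against 0.769 and 0.748 in H2AX. In the 200 kb before ABL1 it read 1.21, against 1.36 and 1.23.

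The borders of the 2 marks lay within a few bins of each other. Inside the raised stretch, the change point of the BCR side fell 4.551 kb before the gene start in both 1 h gamma-H2AX libraries, with levels 5.07- and 8.90-fold higher on the gene side, and 7.551 kb before it in H3K27me3, with a level of 0.0287 of that in the flank. On the ABL1 side both 1 h libraries and H3K27me3 changed in the same bin, 5.939 kb past the gene end, with gamma-H2AX 3.97- and 6.43-fold higher on the gene side and H3K27me3 at 0.0241 of its flank. K562 H2AX also differed across its own best change points, by 1.25- and 1.14-fold near the BCR start and 1.35- and 1.34-fold near the ABL1 end, in the same direction as gamma-H2AX and far less. The bin that holds the BCR start read 11.2 and 13.4 at 1 h, 7.58 in the second 24 h library, 1.76 in H3K27me3 and 7.09 and 6.98 in H2AX. The bin that holds the ABL1 start in hg19, outside the raised stretch, read 3.11 and 3.68 at 1 h, 2.87 at 24 h, 0.426 in H3K27me3 and 1.51 and 1.83 in H2AX. It is not the start site of the ABL1 promoter sequence shown above, which lies further inside the gene. In the order of genes along GRCh38, RAB36 precedes BCR and a locus named LOC128092248 and then QRFP follow ABL1, and positions of neighbours in the build of the tracks were not used here.

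**Figure D5:**
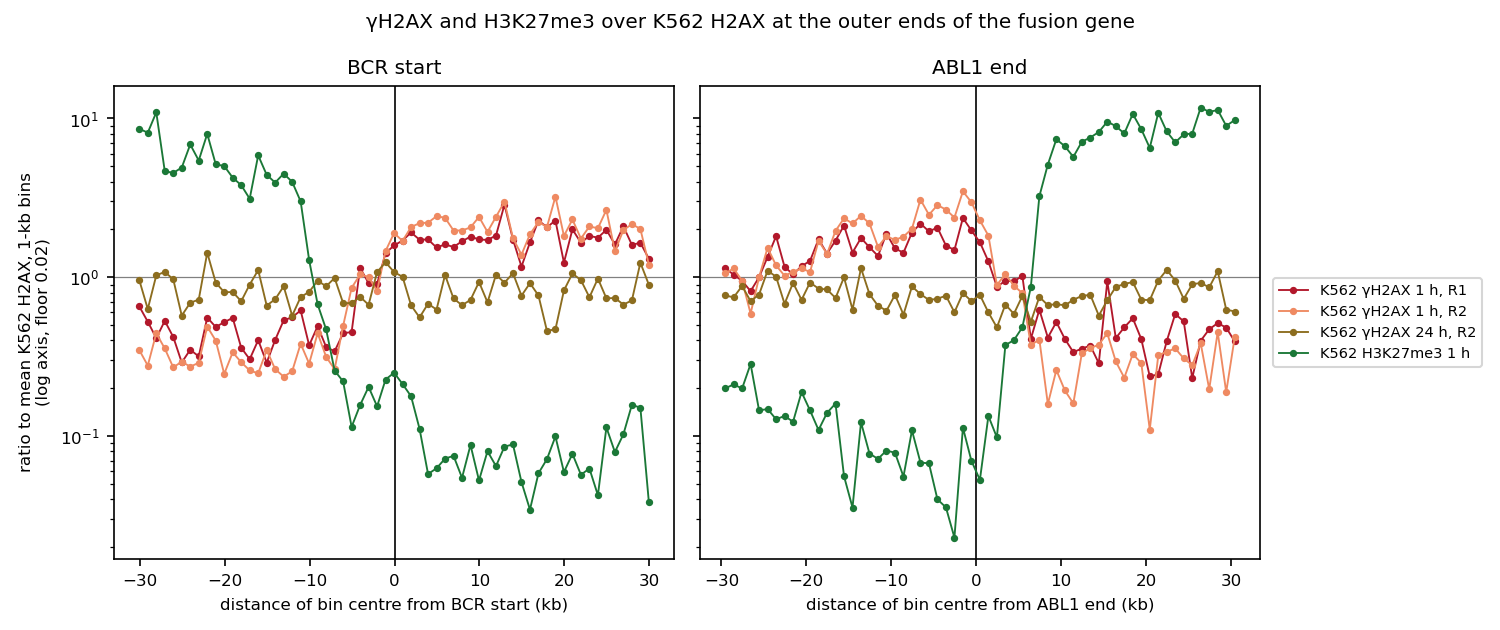
Ratio of K562 gamma-H2AX (1 h replicates and second 24 h replicate) and of K562 H3K27me3 to the mean of K562 H2AX (log axis, values under 0.02 drawn at 0.02) in 1-kb bins within 30 kb of the BCR start and the ABL1 end. Gamma-H2AX at 1 h crosses from below to above H2AX at BCR (change point 4.551 kb before the start) and back at ABL1 (5.939 kb past the end), H3K27me3 runs the opposite way, and the 24 h library stays near or below H2AX, with a change of 1.29-fold at its own best change point on the ABL1 side.

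In the window test H3K27me3 fell against K562 H2AX in 14 of 15 BCR windows and all 19 ABL1 windows and rose in none of them, beside 85.0% of all windows called, 63.4% lower. The median log2 fold change was -3.28 over BCR and -3.23 over ABL1, against -1.89 over all windows. The extremes were -4.18 at 23610001 and 0.62 at 23660001 in BCR and -3.79 at 133750001 and -1.79 at 133760001 in ABL1, and the windows that hold the steps had -3.19 and -3.78. In the flanks it rose in 16 of 20 windows before BCR and all 20 after ABL1, and it rose in 6 and fell in 8 after BCR and rose in 4 and fell in 15 before ABL1. Under median-of-ratios scaling, which moved the median of all windows to -0.013 and the split of all calls to 121600 higher and 117906 lower, against 59508 and 175313 in the main scaling, BCR had 2 windows higher and 13 lower and ABL1 0 higher and 16 lower. With the first 24 h replicate kept, 1 of the 34 gene windows and none of the 40 windows before BCR and after ABL1 was called.

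At 24 h, in the replicate that can be read, gamma-H2AX did not stand above H2AX in either gene. The second 24 h library had 8.73 on the fused side of BCR, against 12.2 and 10.2 in K562 H2AX, and 9.82 on that of ABL1, against 12.8 and 11.7. It read 8.31 before BCR, against 9.85 and 9.04, and 7.67 after ABL1, against 9.58 and 8.81, so its ratio to H2AX was 0.778 and 0.80 within the fused parts and 0.879 and 0.834 in these flanks. The first 24 h library read 0 in every bin of both fused parts. In limma 0 of the 34 windows were called against K562 H2AX, as were 0% of all windows, while 2 BCR windows, 1 ABL1 window and 36647 windows in all had an unadjusted p under 0.05. The median log2 fold change was -0.38 over BCR (lowest -0.82 at 23640001, highest -0.18 at 23550001) and -0.34 over ABL1 (lowest -0.64 at 133760001, highest -0.087 at 133670001), against 0.032 over all windows. The windows that hold the steps had -0.68 in BCR and -0.20 in ABL1. With only the 24 h and H2AX libraries in the fit, 3 windows were called, all lower.

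Set against each other, the time points differed in most of BCR. The fused side of BCR read 8.73 at 24 h, against 20.1 and 24.3 at 1 h, and that of ABL1 read 9.82, against 15.2 and 16.0. The log2 fold change, coded as 1 h over 24 h, was positive and called in 14 of 15 BCR windows and 12 of 19 ABL1 windows and negative and called in 0, beside 47.2% of all windows called, 15.2% of them all being higher at 1 h and 32.0% lower. In the flanks 1 h was below 24 h in 19 of 20 windows before BCR and all 20 after ABL1, and in 0 of these 40 with the first 24 h replicate kept. Its median was 1.37 over BCR and 0.61 over ABL1, against -0.25 over all windows. The largest values were 2.20 at 23630001, the window with the BCR step (SE 0.23, limma adjusted p = 5.62e-04), and 1.42 at 133750001 in ABL1, and the lowest were -0.53 at 23660001 and -0.093 at 133720001. The window with the ABL1 step had 0.69. The joint count of 26 windows was 14 with no filter, 3 with only the libraries of these time points in the fit and 2 with the first 24 h replicate kept.

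The shape along the fused parts also differed between the times, described here over 1-kb bins that share position, sequence and copy number. The 1 h replicates resembled each other (Pearson's r = 0.793 over 110 bins of BCR and 0.875 over 156 bins of ABL1), as did the K562 H2AX replicates (0.793 and 0.645). The second 24 h library resembled mean K562 H2AX (0.651 in BCR and 0.522 in ABL1) more than it resembled the mean of the 1 h libraries (-0.015 and 0.249). The 1 h mean had 0.214 and 0.293 with H2AX and -0.111 and -0.280 with H3K27me3. The coefficient of variation over the bins of the fused side of BCR was 0.271 and 0.324 at 1 h and 0.299 in the second 24 h library, against 0.219 and 0.229 in K562 H2AX. On the fused side of ABL1 it was 0.308 and 0.407 at 1 h and 0.254 at 24 h, against 0.185 and 0.180 in H2AX. Gamma-H2AX was thus more uneven than H2AX at both times, and in BCR the 24 h value lay between those of 1 h. The highest bins at 1 h were 36.3 at 23539001 and 43.0 at 23598001 in BCR and 31.5 at 133700001 and 32.9 at 133757001 in ABL1, for the first and the second replicate in turn.

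HepG2, which lacks the fusion, had no window in which gamma-H2AX passed the test. HepG2 gamma-H2AX at 1 h read 0.607 on the side of BCR that K562 fuses, against 0.894 and 0.821 in HepG2 H2AX, and 0.759 on that of ABL1, against 1.00 and 0.908. It lay below both H2AX libraries in these parts, and in the 3′ part of BCR it read 0.489, against 0.584 and 0.477, where it lay between them. Only 844 and 1497 reads, by the read length above, lay behind the first pair of gamma-H2AX values. In limma 0 of 34 windows were called, as were 0% of all windows, while 5 BCR windows, 6 ABL1 windows and 22005 windows in all had an unadjusted p under 0.05. The median log2 fold change was -0.40 over BCR (lowest -0.96 at 23610001, highest 0.23 at 23650001) and -0.22 over ABL1 (lowest -0.87 at 133590001, highest 0.30 at 133580001), against 1.55e-04 over all windows. The windows that hold the K562 steps had -0.23 and -0.15. With only the HepG2 libraries in the fit 5 windows were called, all lower.

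The difference between the lines was tested as an interaction, a contrast added after the data were seen. The 1 h ratio of gamma-H2AX to H2AX was higher in K562 than in HepG2 in 13 of 15 BCR windows and 4 of 19 ABL1 windows and lower in 0, beside 28.3% of all windows called, 9.18% of them all being higher in K562. The median difference in log2 fold change was 1.39 over BCR and 0.55 over ABL1, against -0.15 over all windows, and reached 2.40 at 23620001 (SE 0.32, limma adjusted p = 0.00559) and 1.45 at 133750001 (SE 0.28, limma adjusted p = 0.00686). It was lowest at 23660001, with -0.95, and at 133580001, with -0.14, and the windows that hold the steps had 1.75 and 0.64. The joint count of 17 was 0 without any 1 of the 4 H2AX libraries and 0 with the first 24 h replicate kept, and 5 with no filter.

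The deposited peaks followed the same outline. For K562 at 1 h the lists, called per library in the layout of broad peaks, held 12 and 10 peaks in BCR and 21 and 18 in ABL1. On the fused side of BCR peaks covered 79.4% and 88.4% of the bases, and on that of ABL1 58.7% and 60.0%, against 1.86% and 2.79% of the genome. No peak of either list lay in the 200 kb before or after BCR, and the 200 kb after ABL1 held 1 peak in each list, which runs over the gene end. The 200 kb before ABL1 held 9 and 10 peaks, which covered 5.86% and 12% of it. Past the step in BCR the first list had 0 peaks and the second had 3, and before the step in ABL1 the lists had 1 and 2. In BCR all 12 fused-side peaks of the first list overlapped the second by at least 1 bp and all 7 of the second overlapped the first, and in ABL1 19 of 20 and 15 of 16 did. With this much of the fused sides covered, most peaks would overlap by 1 bp wherever they lay. The share of overlapping peaks over the whole lists was not computed, so these counts do not measure how alike the replicates are.

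Wide cover did not come with high enrichment in BCR, whereas the 2 lists differed in ABL1. By the peak caller's own fold enrichment, a value of the authors' lists, the highest peak in BCR had 1.70 and 1.84 and the highest in ABL1 2.78 and 1.97, while the median of each whole list was 1.78 and 1.76. The ABL1 peak with 2.78, above 97.8% of its list, was 268 bp long. On the fused sides the median fold was 1.51 and 1.67 in BCR and 1.81 and 1.49 in ABL1. The longest peak of either gene, 50103 bp, lay in BCR in the second list. With q under 0.05, 6 of 12 and 8 of 10 peaks were left in BCR and 1 of 21 and 1 of 18 in ABL1, beside 8.10% and 14.7% of the whole lists.

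At 24 h, when the lists held 8 and 13 peaks in the whole genome, some of them lay in these genes. The second list placed 2 in BCR, at chr22:23525742-23526049 (fold 3.02) and chr22:23598749-23599111 (fold 3.05), and 2 in ABL1, at chr9:133607359-133607658 (fold 4.84), whose start lies 0.358 kb past the ABL1 step, and chr9:133756877-133757576 (fold 3.57). The first list placed 1 in BCR, at chr22:23539117-23539792 (fold 3.85), where its own track reads 0. All 5 lie on the fused sides and overlap 1 h peaks of both lists. The fused sides hold 110 bins of BCR and 156 of ABL1, against 27 and 18 on the other sides. Peaks of the 1 h lists cover 58.7% to 88.4% of the fused sides. Neither the place nor the overlap of so few peaks therefore sets the fused sides apart. In the bin that holds the centre of each peak the second 24 h library had relative depths of 6.92 to 12.2, against 9.81 to 19.2 in K562 H2AX, below both H2AX libraries at each peak. Which control the caller's folds refer to is not given in these sources. The HepG2 list, of 170 peaks, held 0 in either gene or flank.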

How the data were processed

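The tracks and peak lists were used as deposited. Per the submitters' processing notes the build was hg19 and the tools included BWA 0.7.12, SAMtools and MACS2, without roles or settings. The deposited signal is unscaled coverage, given as mean depth over each 1-kb bin. Each of the 5 deposited gamma-H2AX peak lists gives the authors' fold enrichment, −log10 values for p-value and q-value, and an integer score, which was not used. The lists were called per library, in the layout of MACS2.

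Bins were divided by their library mean and averaged into 10-kb windows with at least 50% of their bins. Windows in which H2AX of either line averaged at least 0.25 were tested as log2(relative depth + 0.05), which understates the fold change of low windows. The test was limma 3.58.1 (R 4.3.3) with a mean-variance trend over 9 libraries in 6 groups, with 3 residual degrees of freedom, and Benjamini-Hochberg adjustment over all 276350 windows, two-sided, called at adjusted p under 0.05. Groups of 1 library use the spread of the pairs. Comparisons with K562 H2AX share those 2 libraries. Depth behind the segments ranged from 50.5 reads (H3K27me3, 5′ part of ABL1) to 207744, leaving out the first 24 h replicate, and intervals for counting error were not computed because reads without molecular identifiers are not independent molecules.

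The step was the least-squares change point of log2(relative depth + 0.05) in mean K562 H2AX, with at least 5 bins on each side. Both procedures were tested on simulated data. Other scaling, pseudocounts, filters, window sizes, left-out libraries and a replicate block were tried. Same-numbered replicates did not deviate together (r = 0.0178 to 0.0675 over windows), so the numbers do not pair. The text names in each gene the windows with the highest and lowest fold change, those at the step and the bins at the gene start, and other windows and 1-kb bins named were chosen after their values were seen. The genes, tests and alternatives were chosen with earlier results of these data known. Python 3.11.15, numpy 2.4.6, pandas 2.3.3 and matplotlib 3.10.9 were used.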

Additional observations from a re-analysis of the deposited data

Results flagged for a closer look

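The response at 1 h, gamma-H2AX over H2AX of the same line, differed between K562 and HepG2 by the limma interaction in 13 windows of BCR and 4 windows of ABL1, all higher in K562, beside 28.3% of all windows called. Leaving out any 1 of the 4 H2AX libraries left 0 of these calls. In BCR the fused side read 20.1 and 24.3 in K562 gamma-H2AX, against 12.2 and 10.2 in K562 H2AX, and 0.607 in HepG2 gamma-H2AX, against 0.894 and 0.821 in HepG2 H2AX. Mean depth was 1.43 and 1.77 in the K562 1 h libraries and 0.518 in the HepG2 1 h library, and reads were of 60 bp in the K562 libraries and 41 bp in the HepG2 library, and their part in the difference was not tested.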

How the results depend on the processing

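Of 130 values recomputed under other settings, 97 stayed within the spread of replicates or within 1.5 times the main count, and 33 did not. Some of the 97 could not have come out otherwise. A step size or side difference without 1 of its 2 averaged replicates always lies within their SD. Counts of 0 in both settings, also in comparisons with no window called over the genome, were taken as unchanged. Both step positions were the same bin under every alternative. With the first 24 h replicate kept, the counts of called windows in the genes were 0 for K562 1 h against H2AX (20 otherwise), 1 for H3K27me3 (33), 2 for 1 h against 24 h (26), 0 for K562 H2AX against HepG2 H2AX (32) and 0 for the interaction (17), and over the genome 0, 161849, 86190, 1157 and 0. With no filter they were 12 for 1 h against H2AX, 14 for 1 h against 24 h and 5 for the interaction. Of 5 windows of 100 kb, the counts were 3, 5, 4, 5 and 4 in that same order of comparisons, where for H3K27me3 2 of the 3 windows of ABL1 were higher and 1 lower (median 0.69, against -3.23 in 10-kb windows), and of 65 windows of 5 kb they were 63 for H3K27me3 and 59 for K562 against HepG2 H2AX. With only the compared libraries they were 3 for 24 h against H2AX (0 otherwise), 3 for 1 h against 24 h and 5 for HepG2 (0 otherwise), and over the genome 37933, 71424 and 10739, with 139278 for K562 against HepG2 H2AX. Leaving out a replicate gave 11 to 23 for 1 h against H2AX, 27 to 28 for 1 h against 24 h, 29 in each case for K562 against HepG2 H2AX, with 14199 to 31151 windows over the genome against 84516, and 0 to 24 for the interaction, with 0 to 144044 over the genome against 78303. The cause of these changes was not tested, apart from the number of windows, which falls or rises with their size. Groups of 1 library could not be left out.

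Median-of-ratios scaling moved the median log2 fold change of all windows to 0.058 from -0.044 for 1 h against H2AX and to -0.11 from -0.25 for 1 h against 24 h, and to -0.013 from -1.89 for H3K27me3. With the replicate number as a block, the counts were 21 for 1 h against H2AX, 24 for 1 h against 24 h, 33 for H3K27me3, 32 for K562 against HepG2 H2AX, 17 for the interaction and 0 for the other comparisons, and the numbers do not pair the samples.

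The log2 step size of BCR was 3.97 by medians and 3.16 after division by HepG2 H2AX, against 3.86, and that of ABL1 was 2.84 after division and 3.22 over 100 kb, against 2.76. The log2 difference between the sides of the step in BCR was 1.22 over 100 kb and -0.68 in the bins outside peaks, against -0.054, and in ABL1 0.49 and -0.37, against 0.084. The bins outside 1 h peaks were 2 on the fused side and 22 on the other in BCR, and 36 and 13 in ABL1. Leaving out peaks removes bins chosen for high gamma-H2AX, mostly on the fused sides. The values outside peaks therefore cannot tell whether the sides differ. With q under 0.05, the 1 h lists held 7 and 9 peaks in the genes instead of 33 and 28.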
